A study of Mus musculus with 6 samples.

Results

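The collagen genes of the E15.5 mouse ovary were measured by RNA-seq in 3 control pools and 3 pools exposed to panobinostat (PB). Members were all gene names of the annotation made of Col, a number, the letter a and a number, which took 44 of 35974 gene names and 243 of 114412 transcripts. The counts of all transcripts with the same gene name were added to a gene sum, and 43 of the 44 sums passed the filter on low counts and were tested with 19435 genes in all. Col10a1 did not pass, with 0, 0 and 0 counts in control and 32, 0 and 8 in PB. Both groups were of the C57Bl6j strain, and the labels name no altered allele. Pregnant females of the PB group received panobinostat, an inhibitor of histone deacetylases, at 5 mg/kg from E6.5 to E15.5, daily by the labels and on alternate days by the methods text. Control females received the solvent, DMSO in water. Each library came from the RNA of several pooled ovaries, so the spread between libraries is a spread between pools and not between embryos. The series' design text describes the control libraries, too, as libraries from exposed mice, and the groups used here follow the treatment label of each sample.

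Collagens are the main structural proteins of the extracellular matrix. Each molecule is a triple helix of α chains, and each chain is the product of a gene of its own. Fibrillar collagens build the load-bearing fibres of connective tissue, type IV collagen forms the network of basement membranes, type VI collagen makes beaded filaments around cells, and the fibril-associated collagens (FACIT) sit on the surface of fibres. In the fetal ovary, stromal cells enter between the germ cell cords, and basement membrane surrounds the cords and the vessels. A pool holds all of these cells, so that fewer cells of a type and less RNA per cell cannot be told apart here.

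The pools held 97165644 to 125985399 counts, so that 3 counts, the floor used here, were worth 0.0257 to 0.0319 CPM, which are counts scaled to the same total in each pool. CPM values were adjusted between pools by the trimmed mean of M-values (TMM). Levels of different genes were compared only per transcript length, as TPM, the share of a transcript in the pool after division by its length. TPM were not TMM-scaled. Markers of pregranulosa cells were present in each pool (Foxl2 91.4 TPM and Fst 92.1 TPM on average), whereas the adrenal steroid enzymes Cyp11b1, Cyp21a1 and Cyp11b2 lay between 0 and 0.0774 CPM. Control 3 stood apart in some markers. Of the 4 mesonephric markers, Pax2, Lhx1 and Cdh16 were highest in control 3 and Pax8 in PB 2. They added up to 17.0 TPM in control 3 and to 8.14 to 11.4 TPM in the other pools, mostly through Cdh16, a cadherin of tubular epithelium, at 2.72, 3.34 and 14.8 CPM in control and 2.93, 3.87 and 1.90 CPM in PB. Without Cdh16 the sum was 9.24 TPM in control 3 and 6.67 to 9.46 TPM in the others. Hba-a1, an α-globin gene of red blood cells, was at 6535, 9008 and 2064 CPM in control and 5421, 5528 and 5593 CPM in PB, and the 4 red cell markers added up to 11629 TPM in control 3 and to 22213 to 31919 TPM in the others.

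No collagen gene passed the test between PB-exposed and control ovaries at a fold change of 2 or more with a false discovery rate (FDR) of 0.05 or less, the thresholds used by the study. The edgeR quasi-likelihood test called 0 of 43 members, where 3 of all 19435 genes (0.0154%) were called, and the smallest Benjamini-Hochberg adjusted p of a member was 0.888. DESeq2 also called 0 members, where 0.0414% of all genes were called. At an unadjusted p under 0.05, edgeR found 3 members, Col13a1, Col9a2 and Col7a1, all lower in PB. DESeq2, which tested 44 members, found 6, and its share over all genes at that p is not given here. Of all genes tested by edgeR, 4.46% had such a p, 2.43% with a lower and 2.03% with a higher level in PB. The measurement was precise for the abundant chains. The 15 members with the highest level per length, Col19a1 left out, had log2 fold changes between -0.18 and 0.12 with a standard error (SE) of at most 0.10. Of all 43 members tested, 19 had an SE under 0.1 and 33 an SE under 0.2 on the log2 scale.

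**Figure D1:**
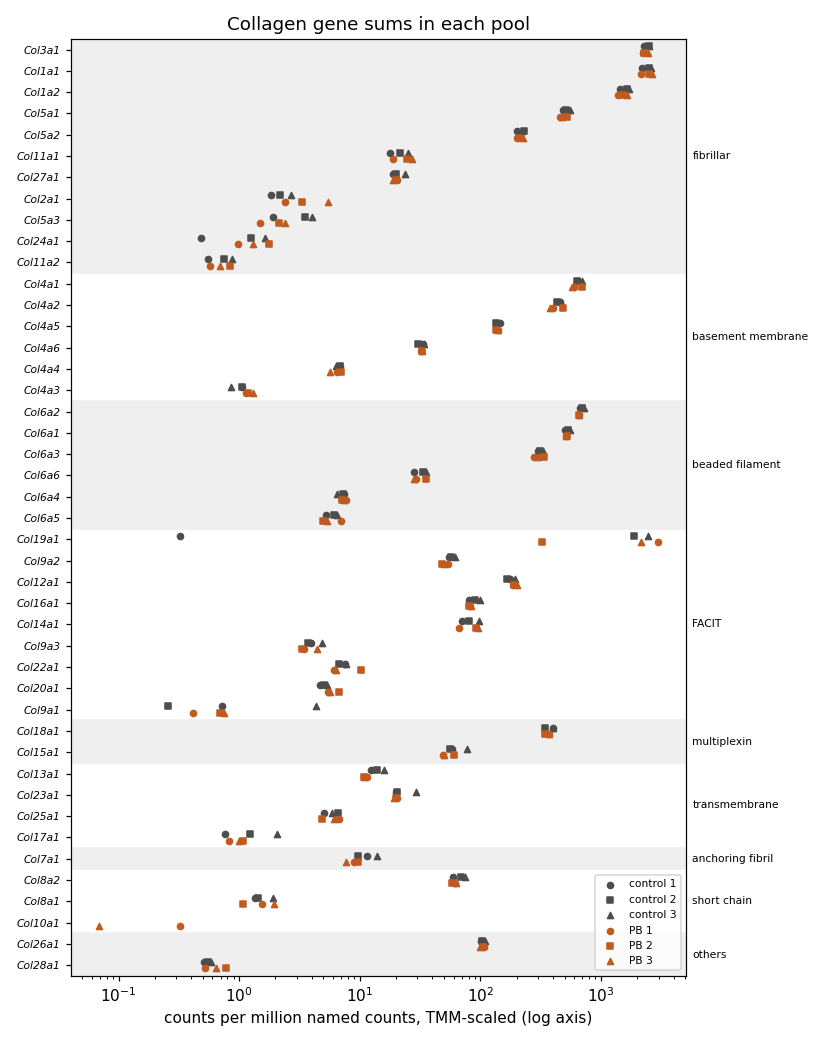
Gene sums of the 44 collagen genes in each pool, in TMM-scaled CPM on a log axis, grouped by class and sorted within a class by level per length; grey symbols are control pools and orange symbols PB pools, and a pool at 0 has no symbol. Col3a1, Col1a1 and Col1a2 lie farthest to the right among genes with close symbols, the symbols of most genes lie close together, and those of Col19a1 spread from 0.326 to 2984 CPM.

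The direction of these small differences was uneven, and this shrank most without 1 pool, control 3. The log2 fold change was below 0 for 31 members and above 0 for 12, with a median of -0.051, whereas 49.3% of all tested genes were below 0 and their median was 0.0020. Without control 3, 22 members were below 0 and 21 above, and the median was -0.012. With any other single pool left out, 28 to 33 members were below 0, and without control 1 the median was -0.103. For Col13a1, Col7a1, Col9a2 and Col6a2 every PB pool was below every control pool, so leaving out 1 control pool could hardly turn their sign. Without control 3 these 4 were at -0.24, -0.27, -0.14 and -0.064. Control 3 was the highest of the 6 pools for 23 of the 42 tested members other than Col19a1 (54.8%), whereas it was the highest for 14.8% of all tested genes. Control 1 was the lowest pool for 11 of these members and control 3 the lowest for 2. Control 3 is also the pool with the high Cdh16 and low red cell markers. The part of these markers in the collagen levels was not tested.

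Ranked per length, the fibrillar chains made up most of the collagen mRNA. Summed over class, the fibrillar genes reached 1836 ± 167 TPM in control and 1916 ± 145 TPM in PB (SD, n = 3), the beaded filament genes 533 ± 41.3 TPM in control and 551 ± 12.8 TPM in PB (SD, n = 3), and the basement membrane genes 289 ± 27.0 TPM in control and 293 ± 17.0 TPM in PB (SD, n = 3). The multiplexins Col18a1 and Col15a1 reached 128 ± 18.6 TPM in control and 128 ± 7.79 TPM in PB (SD, n = 3). The 43 members other than Col19a1 held 0.998% to 1.15% of all counts of a pool. Their summed level was 2985 ± 264 TPM in control and 3093 ± 145 TPM in PB, with overlapping pools. In none of these 4 classes did the summed level of the PB pools lie apart from that of the controls. These TPM sums and the TMM-scaled fit differed in direction. Col1a1, with a mean of 2431 CPM in both groups, averaged 599 TPM in control and 645 TPM in PB. The TMM-scaled log2 fold change was below 0 for 8 of 11 fibrillar genes and 5 of 6 beaded filament genes. It was also below 0 for 5 of 6 basement membrane genes and 2 of 2 multiplexins.

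Among the fibrillar genes, Col3a1, Col1a1 and Col1a2 stood far above the others. Col3a1 encodes the chain of type III collagen of pliable tissues, and was at 2287, 2498 and 2492 CPM in the control pools and 2252, 2274 and 2434 CPM in the PB pools (log2 fold change -0.064 ± 0.061 SE, unadjusted p = 0.332 in the edgeR fit). Col1a1 and Col1a2 encode the chains of type I collagen. Col1a1 was at 2179, 2493 and 2622 CPM in the control pools and 2144, 2523 and 2626 CPM in the PB pools, with the same mean of 2431 CPM in both groups (SE of the log2 fold change 0.10). Col1a2 was at 1451, 1651 and 1708 CPM in the control pools and 1387, 1534 and 1652 CPM in the PB pools (log2 fold change -0.073 ± 0.090 SE). The groups overlapped for all of these genes, and control 1 and PB 1 were the lowest pools of their groups for each. The levels per length were close for Col3a1 and Col1a1, at 649 TPM and 622 TPM on average over the 6 pools, with overlapping pools, and lower for Col1a2, at 452 TPM.

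The promoter windows of Col1a2 and Col3a1 are shown because these are 2 of the 3 leading genes of the class and their windows differ in composition. No window of Col1a1 was at hand. Each window runs from 250 bases before to 50 bases after the transcription start (RefSeq, GRCm38.p6, plus strand, chr6:4505368-4505667 and chr1:45311288-45311587), and capitals mark, on either strand, matches to the TATA box motif TATAAA, to the CCAAT box motif, spelled CCAAT, and to the GC box motif GGGCGG. No matches overlapped in these 2 windows.
Col1a2: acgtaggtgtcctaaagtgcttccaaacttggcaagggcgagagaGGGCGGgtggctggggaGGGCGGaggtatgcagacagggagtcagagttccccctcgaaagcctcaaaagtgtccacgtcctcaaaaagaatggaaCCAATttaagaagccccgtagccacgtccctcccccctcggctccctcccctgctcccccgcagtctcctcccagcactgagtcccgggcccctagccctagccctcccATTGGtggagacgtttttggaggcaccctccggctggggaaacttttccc
Col3a1: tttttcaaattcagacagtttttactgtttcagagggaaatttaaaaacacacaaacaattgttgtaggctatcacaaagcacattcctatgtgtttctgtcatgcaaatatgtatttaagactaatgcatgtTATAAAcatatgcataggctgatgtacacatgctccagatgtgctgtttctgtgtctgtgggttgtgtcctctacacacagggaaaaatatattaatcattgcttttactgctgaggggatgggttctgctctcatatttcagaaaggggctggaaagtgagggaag
The window of Col1a2 was 61.0% G and C with 2 CCAAT and 2 GGGCGG matches, and that of Col3a1 was 37.7% G and C with 1 TATAAA match. A window of this kind was at hand for 35 collagen genes, 38 windows in all. TATAAA was found in 5 of these (13.2%, all promoters 13.6%), CCAAT in 13 (34.2%, all promoters 37.4%) and GGGCGG in 23 (60.5%, all 32851 promoters 35.7%). The median content of G and C was 59.8% in the collagen windows and 52.7% in all windows.

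The type V chains, which set the diameter of type I fibres, followed at a lower level. Col5a1 was at 488, 517 and 557 CPM in the control pools and 455, 526 and 474 CPM in the PB pools (log2 fold change -0.10 ± 0.076 SE). Col5a2, the neighbour of Col3a1 on chromosome 1 with 24624 bases between their ends, was at 201, 229.9 and 221 CPM in the control pools and 201, 210.1 and 227 CPM in the PB pools (log2 fold change -0.029 ± 0.070 SE). Both groups overlapped for both genes. Col11a1, a type XI chain of cartilage and other fibres, was at 17.7, 21.6 and 25.0 CPM in the control pools and 18.9, 24.8 and 27.0 CPM in the PB pools, with PB 2, PB 3 and control 3 as the high pools.

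The largest differences of the class were found among fibrillar genes of low level, Col2a1 and Col5a3. Col2a1, the chain of cartilage collagen, had the highest log2 fold change of the 43 gene sums tested, at 0.74 ± 0.32 SE (unadjusted p = 0.0574 and FDR = 0.888 by edgeR). It was at 1.84, 2.20 and 2.69 CPM in the control pools and 2.40, 3.30 and 5.49 CPM in the PB pools, so that PB 2 and PB 3 lay above the control range and PB 1 within it. Without PB 3 the log2 fold change was 0.35. Comp, a cartilage marker, was at 0.489, 0.686 and 0.478 CPM in control and 0.595, 0.636 and 1.40 CPM in PB, again highest in PB 3, and Matn1 lay between 0 and 0.232 CPM with PB 3 highest. Of the other 3 cartilage markers, Acan and Hapln1 had log2 fold changes of -0.034 and 0.028, and Cytl1 was at or under 0.120 CPM. The part of these markers in the level of Col2a1 was not tested. Col5a3, another type V chain, had the next-to-lowest log2 fold change of these sums, -0.64 ± 0.31 SE (unadjusted p = 0.0812), at 1.91, 3.49 and 3.98 CPM in the control pools and 1.48, 2.13 and 2.39 CPM in the PB pools; the pools overlapped because control 1 was low. The remaining fibrillar genes Col27a1, Col24a1 and Col11a2 had overlapping pools and log2 fold changes of -0.076 ± 0.097, 0.27 ± 0.45 and -0.042 ± 0.26 SE, and Col24a1 was lowest in control 1, at 0.478 CPM against 0.978 to 1.76 CPM in the other pools.

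**Figure D2:**
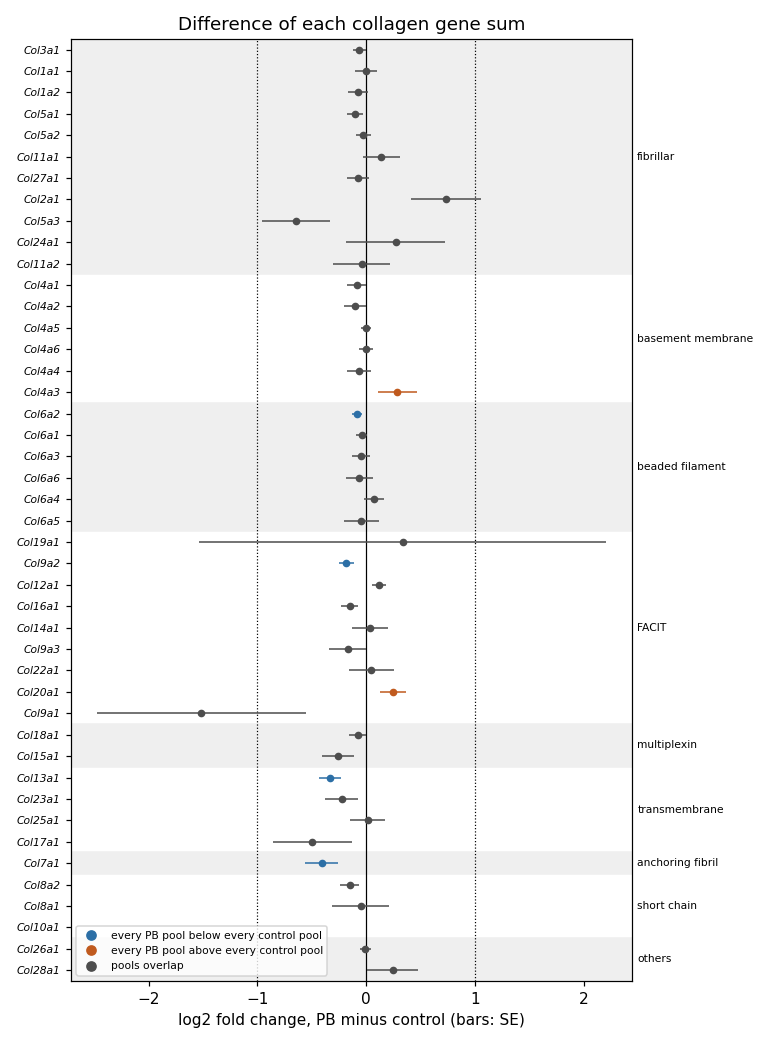
Log2 fold change of each tested collagen gene sum (PB minus control, bars give the SE of the edgeR fit), by class; dotted lines mark a 2-fold difference and colours mark genes whose control and PB pools do not overlap. The genes with long bars, Col19a1 and Col9a1, are those in which single pools stand apart, and the abundant genes lie close to 0.

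The chains of type IV collagen fall into head-to-head pairs. Col4a1 and Col4a2, which are found in nearly all basement membranes, were by far the highest of them. Col4a1 was at 651, 636 and 702 CPM in the control pools and 601, 697 and 572 CPM in the PB pools and Col4a2 at 453, 432 and 470.5 CPM in the control pools and 401, 484 and 377 CPM in the PB pools, and in both PB 2 was the high PB pool and PB 3 the low one. The log2 fold changes were -0.088 ± 0.085 and -0.10 ± 0.097 SE. Without PB 2 they were -0.18 and -0.22, which did not reach the FDR threshold either (smallest FDR of a member 0.254 by edgeR). Of the 5 endothelial markers, Pecam1, Cdh5, Tek and Emcn were in CPM also highest in PB 2 among the PB pools (Cdh5 at 88.4, 108 and 88.7 CPM), whereas Kdr was lowest there. In TPM, which were not TMM-scaled, Cdh5 and Tek were highest in PB 2, Pecam1 in PB 1, and Emcn and Kdr in PB 3. The summed level of the 5 markers was 121 TPM in each PB pool. Their part in the level of the type IV chains was not tested.

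Col4a1 and Col4a2 are read from opposite strands of chromosome 8, and their annotated transcripts overlap by 22 bases at their starts. The windows of both genes (chr8:11312777-11313076, minus strand, and chr8:11312555-11312854, plus strand, RefSeq, GRCm38.p6) therefore share 78 bases, which are given in capitals and are the reverse complement of each other.
Col4a1: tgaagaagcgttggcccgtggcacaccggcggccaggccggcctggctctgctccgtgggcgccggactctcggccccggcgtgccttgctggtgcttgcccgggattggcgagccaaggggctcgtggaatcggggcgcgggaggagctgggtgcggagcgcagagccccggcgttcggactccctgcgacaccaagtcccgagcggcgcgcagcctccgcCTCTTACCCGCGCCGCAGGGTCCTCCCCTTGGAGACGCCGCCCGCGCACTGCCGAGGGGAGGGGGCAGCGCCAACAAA
Col4a2: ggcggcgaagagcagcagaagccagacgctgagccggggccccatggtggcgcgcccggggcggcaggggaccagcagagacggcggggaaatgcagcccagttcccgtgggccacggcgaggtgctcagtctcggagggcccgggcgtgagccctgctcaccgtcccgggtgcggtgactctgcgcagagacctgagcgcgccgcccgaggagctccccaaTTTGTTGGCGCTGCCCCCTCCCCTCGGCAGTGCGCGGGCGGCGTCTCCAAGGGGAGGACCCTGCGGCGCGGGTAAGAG
Over the 6 pools, the ratio of the per-length levels of Col4a1 and Col4a2 was 1.40, 1.44 and 1.45 in control and 1.46, 1.40 and 1.48 in PB. It thus ranged from 1.40 to 1.48 while the level of each gene varied more widely between PB 2 and PB 3.

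Col4a5 and Col4a6, which lie head to head on the X chromosome with 1293 bases between them, were flat across the pools. Col4a5 was at 145, 136 and 136 CPM in the control pools and 141, 134 and 141 CPM in the PB pools (log2 fold change -0.0026 ± 0.047 SE), and Col4a6 at 33.2, 30.3 and 34.1 CPM in the control pools and 32.1, 32.5 and 32.9 CPM in the PB pools (log2 fold change -0.00099 ± 0.061 SE). Their ratio was 4.47, 4.59 and 4.10 in control and 4.51, 4.23 and 4.39 in PB. Col4a3 and Col4a4, the chains of kidney and other specialised membranes on chromosome 1, were low. Col4a4 was at 6.87, 6.84 and 6.37 CPM in the control pools and 6.52, 7.03 and 5.62 CPM in the PB pools. Col4a3 was at 1.06, 1.06 and 0.850 CPM in the control pools and 1.13, 1.19 and 1.299 CPM in the PB pools, from 80 to 151 counts a pool, and was 1 of 2 members for which every PB pool was above every control pool (log2 fold change 0.28 ± 0.18 SE, unadjusted p = 0.158 by edgeR). Such a lack of overlap in the higher direction was seen for 5.10% of all tested genes.

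Type VI collagen had the smallest median absolute log2 fold change, 0.055, against 0.076 for the fibrillar and 0.078 for the basement membrane genes. Col6a2 was at 676, 695 and 719 CPM in the control pools and 660.0, 661 and 653 CPM in the PB pools, with every PB pool below every control pool, and its log2 fold change was -0.083 ± 0.045 SE (unadjusted p = 0.109 by edgeR). Col6a1, 85166 bases away on the same strand of chromosome 10, was at 506, 535 and 555 CPM in the control pools and 513, 526 and 512 CPM in the PB pools (log2 fold change -0.041 ± 0.049 SE). The larger chain Col6a3 on chromosome 1 was at 298, 313 and 331 CPM in the control pools and 278, 336 and 298 CPM in the PB pools (log2 fold change -0.047 ± 0.080 SE), and per length it stood at 57.8 TPM against 275 TPM for Col6a2. The 3 chains of the chromosome 9 cluster were lower. Col6a6 was at 27.9, 33.4 and 35.4 CPM in the control pools and 29.2, 35.4 and 28.0 CPM in the PB pools, Col6a4 averaged 1.42 TPM and Col6a5 0.955 TPM, and all 3 had overlapping pools.

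Among the fibril-associated chains, Col12a1 and Col9a2 were measured at 26.0 TPM and 29.9 TPM on average. Col9a2, a type IX chain that in cartilage coats type II fibres, was lower in every PB pool than in every control pool, at 54.7, 56.6 and 61.3 CPM in the control pools and 53.7, 48.2 and 50.05 CPM in the PB pools (log2 fold change -0.18 ± 0.067 SE, unadjusted p = 0.0310, FDR = 0.888 by edgeR). Col12a1 was at 174, 167 and 193 CPM in the control pools and 187, 191 and 201 CPM in the PB pools (log2 fold change 0.12 ± 0.065 SE). Col16a1 was at 80.9, 90.8 and 100.1 CPM in the control pools and 81.4, 80.4 and 82.9 CPM in the PB pools (log2 fold change -0.15 ± 0.080 SE), and control 3 was its highest pool. Col14a1 was at 70.5, 80.5 and 97.2 CPM in the control pools and 66.9, 91.4 and 95.9 CPM in the PB pools, where the spread within each group exceeded the difference between them. Col20a1 was the other member with every PB pool above every control pool, at 4.71, 5.09 and 5.33 CPM in the control pools and 5.48, 6.73 and 5.71 CPM in the PB pools (log2 fold change 0.24 ± 0.12 SE, unadjusted p = 0.0785 by edgeR). Col22a1 and Col9a3 averaged 1.93 TPM and 2.11 TPM, with overlapping groups.

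Col9a1, the partner of Col9a2 in type IX collagen, had the lowest log2 fold change of the 43 gene sums tested, -1.52 ± 0.96 SE, but this came from 1 control pool (unadjusted p = 0.161 by edgeR). Its sum was 71, 30 and 412 counts in control and 41, 71 and 87 in PB. The gene has 2 annotated starts, and their windows lie 17593 bases apart. Transcripts from the upstream start held 30 to 87 counts in each of the 6 pools. The transcript from the downstream start, NM_001290691.1, held 342 counts in control 3 and 0 in the other 5 pools. Control 3 is the pool with the high Cdh16 level given above, whose part in this was not tested. Without control 3 the sign of the log2 fold change of Col9a1 turned, to 0.34. The windows of both starts are shown (RefSeq, GRCm38.p6, plus strand, upstream chr1:24177360-24177659 and downstream chr1:24194953-24195252), and capitals mark matches to the same 3 motifs.
Col9a1 upstream: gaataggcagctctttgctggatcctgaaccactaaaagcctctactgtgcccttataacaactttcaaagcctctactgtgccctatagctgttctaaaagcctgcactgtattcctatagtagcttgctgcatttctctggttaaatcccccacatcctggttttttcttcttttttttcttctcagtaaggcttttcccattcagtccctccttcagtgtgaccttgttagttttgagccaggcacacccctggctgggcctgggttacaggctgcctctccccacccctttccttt
Col9a1 downstream: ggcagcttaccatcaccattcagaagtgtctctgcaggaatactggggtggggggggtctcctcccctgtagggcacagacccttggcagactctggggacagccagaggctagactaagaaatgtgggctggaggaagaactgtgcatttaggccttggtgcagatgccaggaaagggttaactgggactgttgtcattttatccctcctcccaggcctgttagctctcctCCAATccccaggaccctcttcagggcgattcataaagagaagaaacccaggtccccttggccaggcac
The downstream window held 1 CCAAT match, and no match to these motifs was in the upstream window. Col18a1, the other member with windows far apart, gave 94.5% to 96.6% of its counts to transcripts from its upstream start in the 6 pools.

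In all pools but control 1, nearly all counts of the sum named Col19a1 came from a place outside the annotated gene. The sum was 32, 218636 and 232217 counts in control and 295910, 32875 and 251765 in PB, a span from 0.326 to 2984 CPM, which would make it the highest collagen gene per length. The RefSeq transcripts of Col19a1 alone held 32, 60 and 58 counts in control and 27, 241 and 53 in PB. The rest came from 3 assembled transcripts, MSTRG.87.1 to MSTRG.87.3, each with a long first exon at chr1:24613187-24615552 or within it (mm10, minus strand) and a last exon of at most 23 bases. The long exon lies outside the annotated Col19a1 (chr1:24257683-24587535). It overlaps 3 unprocessed pseudogenes of GENCODE, Gm28437, Gm10925 and Gm28661. They belong to a row of 7 in the span of a neighbouring assembled transcript, MSTRG.87.4 (chr1:24611534-24616190), with Gm28439, Gm10222, Gm28438 and Gm29216 as the others. Aligned with the mitochondrial transcripts mt-Nd4, mt-Nd4l, mt-Nd3, mt-Co3, mt-Atp6, mt-Co2 and mt-Co1, the 7 were identical at 4136 of 4137 bases. Reads from this nuclear copy of mitochondrial genes and reads from mitochondrial RNA cannot be told apart at these bases.

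The first 90 bases of the pseudogene Gm28661 and of mt-Co2 (GENCODE transcripts, GRCm38) are shown as an example, and no base is in capitals because none differed.
Gm28661: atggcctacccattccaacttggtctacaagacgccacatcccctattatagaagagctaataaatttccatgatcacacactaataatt
mt-Co2: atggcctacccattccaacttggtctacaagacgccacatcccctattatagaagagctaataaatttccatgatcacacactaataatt
MSTRG.87.4 carries no gene name and held 514843, 319771 and 295715 counts in control and 68541, 495256 and 399222 in PB. The counts of all 4 assembled transcripts together were 514843, 538347 and 527874 in control and 364424, 527890 and 650934 in PB. The share of them named Col19a1 was 0%, 40.6% and 44.0% in control and 81.2%, 6.18% and 38.7% in PB. Scaled to the total of the pool, they held between 3621 and 5433 CPM, while the part named Col19a1 went from 0 to the highest sum of any collagen gene. On the RefSeq transcripts alone, the log2 fold change of Col19a1 was 1.07 ± 0.84 SE (edgeR, unadjusted p = 0.248) and PB 2 was the high pool. With the sum as named, the collagen total was 2842 to 5075 TPM in the pools, and without Col19a1 it was 2824 to 3290 TPM.

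**Figure D3:**
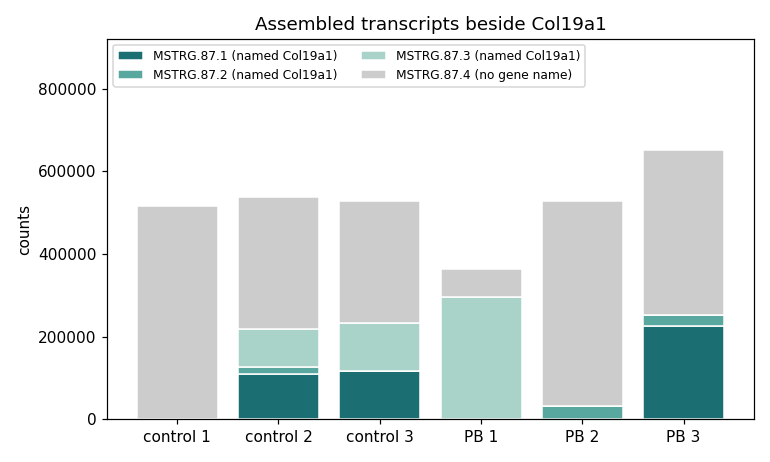
Counts of the 4 assembled transcripts at the nuclear copy of mitochondrial DNA near Col19a1, stacked for each pool; the green parts carry the name Col19a1 and the grey part has no gene name. The whole bars lie between 364424 and 650934 counts, while the green parts range from 0 in control 1 to 295883 in PB 1.

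The multiplexins, which carry heparan sulphate side chains or chondroitin sulphate in basement membrane zones, were next in level. Col18a1, the source of the fragment endostatin, was at 402, 342 and 402 CPM in the control pools and 373, 344 and 368 CPM in the PB pools (log2 fold change -0.080 ± 0.076 SE). Col15a1 was at 57.7, 55.6 and 77.4 CPM in the control pools and 49.4, 60.3 and 49.8 CPM in the PB pools (log2 fold change -0.26 ± 0.15 SE), with control 3 above all other pools. The 4 transmembrane collagens gave Col13a1, the member with the smallest unadjusted p. Col13a1 encodes a cell-surface collagen of adhesion sites, and was at 12.3, 13.8 and 15.7 CPM in the control pools and 11.5, 10.8 and 10.9 CPM in the PB pools (log2 fold change -0.33 ± 0.10 SE, unadjusted p = 0.0157, FDR = 0.888 by edgeR), with every PB pool below every control pool. Col23a1 was at 19.99, 20.4 and 29.2 CPM in the control pools and 20.5, 19.9 and 19.1 CPM in the PB pools, where 5 pools lay between 19.1 and 20.5 CPM and control 3 stood above them. Col25a1 was at 5.05, 6.58 and 5.93 CPM in the control pools and 6.73, 4.85 and 6.13 CPM in the PB pools. Col17a1, a chain of epithelial hemidesmosomes, was at 0.763, 1.24 and 2.06 CPM in the control pools and 0.817, 1.07 and 0.989 CPM in the PB pools (log2 fold change -0.50 ± 0.36 SE), again with control 3 on top.

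Col7a1, the chain of anchoring fibrils below epithelia, was lower in every PB pool than in every control pool. It was at 11.4, 9.69 and 13.9 CPM in the control pools and 9.01, 9.58 and 7.76 CPM in the PB pools (log2 fold change -0.41 ± 0.15 SE, unadjusted p = 0.0328, FDR = 0.888 by edgeR). With Col13a1, Col9a2 and Col6a2 it made up the 4 members without overlap in that direction, which was seen for 5.61% of all tested genes. Of the short-chain collagens, Col8a2 was at 59.7, 68.8 and 74.3 CPM in the control pools and 61.3, 58.7 and 62.5 CPM in the PB pools (log2 fold change -0.15 ± 0.085 SE) and Col8a1 at 1.35, 1.44 and 1.91 CPM in the control pools and 1.54, 1.07 and 1.93 CPM in the PB pools, with overlapping pools. Col26a1, a collagen first described in testis and ovary, was at 101, 103 and 109 CPM in the control pools and 107, 104 and 99.8 CPM in the PB pools (log2 fold change -0.0085 ± 0.051 SE), one of the most even members. Col28a1 was at 0.509, 0.549 and 0.584 CPM in the control pools and 0.524, 0.773 and 0.645 CPM in the PB pools.

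For 10 pairs of chains that join or may join in 1 trimer, the ratio of the levels per length was compared between the groups. With 3 pools against 3, the two-sided exact permutation test cannot give a p below 0.1, and after Benjamini-Hochberg adjustment over the 10 pairs the smallest p was 0.333. The ratio of Col1a1 to Col1a2, the chains of type I collagen, was 1.33, 1.33 and 1.35 in control and 1.37, 1.46 and 1.40 in PB. The ratio of Col6a1 to Col6a2 was 0.705, 0.724 and 0.726 in control and 0.731, 0.750 and 0.738 in PB, and that of Col4a3 to Col4a4 was 0.155, 0.161 and 0.146 in control and 0.178, 0.185 and 0.251 in PB. In these 3 pairs, each at an exact permutation p = 0.1, every PB pool was above every control pool. Ratios of CPM, which use the same counts without division by length and are no separate check, gave the same order. On reference transcripts alone this held for Col4a3 to Col4a4, whereas the pools overlapped for Col1a1 to Col1a2, where control 1 was at 1.53 and PB 3 at 1.47, and for Col6a1 to Col6a2, where control 3 was at 0.725 and PB 3 at 0.711. In the other 7 pairs the groups overlapped. A share without overlap over gene pairs outside these 10 is not given here. The ratio of Col5a1 to Col5a2 was 1.97, 1.80 and 2.05 in control and 1.84, 2.02 and 1.69 in PB, and that of Col6a3 to Col6a1 was 0.299, 0.269 and 0.294 in control and 0.256, 0.313 and 0.304 in PB. Col11a1 exceeded Col11a2 in all pools, by 31.4, 28.1 and 27.9 in control and 32.0, 28.6 and 31.9 in PB. Col8a1 was a small fraction of Col8a2, at 0.0192, 0.0178 and 0.0219 in control and 0.0213, 0.0154 and 0.0263 in PB. For Col9a1 to Col9a2 the ratio was 0.00934, 0.00321 and 0.0610 in control and 0.00543, 0.0102 and 0.0106 in PB, and control 3 stood apart because of the downstream transcript of Col9a1.

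**Figure D4:**
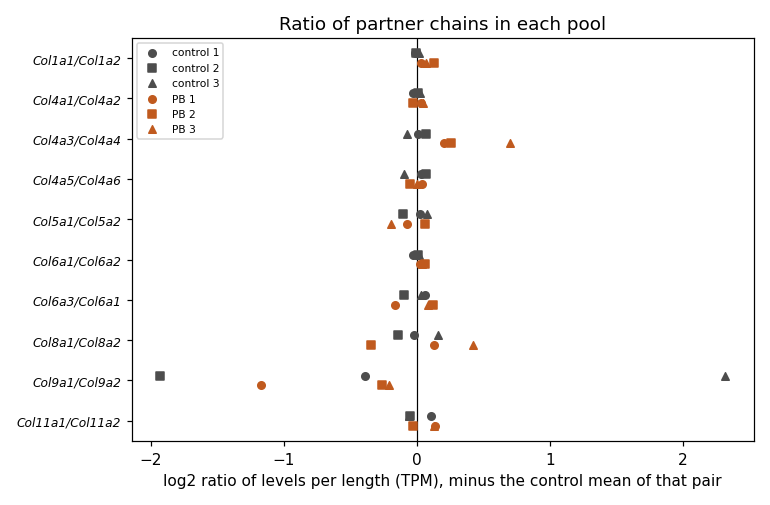
Log2 ratio of the per-length levels (TPM) of 2 partner chains in each pool, with the mean of the 3 control pools of that pair subtracted; grey symbols are control pools and orange symbols PB pools. The PB pools lie to the right of all control pools for Col1a1/Col1a2, Col4a3/Col4a4 and Col6a1/Col6a2, and control 3 stands apart for Col9a1/Col9a2.

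The study compared transcripts, and at that level the collagen counts were less stable than the gene sums. Of the 243 transcripts, 174 had a count in some pool and 97 were tested. The edgeR test called 0 of them (all transcripts 0.0332%), with 2 at an unadjusted p under 0.05, MSTRG.1466.2 of Col13a1 and NM_146007.2 of Col6a2 (all transcripts 3.56%). DESeq2 was run on all transcripts with a count, so the 97 tested by edgeR are not the total for its calls. It called 5 collagen transcripts, where 1.61% of the 72572 transcripts it tested were called. In 3 of these, of Col16a1 and Col6a3, a pool of the group with the counts was at 0. MSTRG.13064.1 of Col16a1 had 4502, 6755 and 0 counts in controls 1 to 3 and 0, 0 and 0 in PB 1 to 3. MSTRG.13064.3 of the same gene had 0, 0 and 0 counts in controls 1 to 3 and 0, 2714 and 7332 in PB 1 to 3, and so was absent from PB 1 as well. MSTRG.489.8 of Col6a3 had 6096, 0 and 423 counts in controls 1 to 3 and 0, 0 and 0 in PB 1 to 3, most of them in control 1. The sums of both genes overlapped between the groups.

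The other 2 were transcripts of Col13a1. MSTRG.1466.2, an assembled splice form, had 12, 13 and 3 counts in controls 1 to 3 and 28, 217 and 115 in PB 1 to 3 and rose in PB by DESeq2 (log2 fold change 3.66, FDR = 0.0139), whereas edgeR gave an unadjusted p = 0.0132 and no call. NM_007731.3 had 0, 0 and 0 counts in controls 1 to 3 and 9, 28 and 22 in PB 1 to 3, and was called by DESeq2 but did not pass the filter of edgeR. Every PB pool was above every control pool for both, which were named because DESeq2 called them. The share of all transcripts without overlap, in either direction, is not given here. The most abundant transcript of the gene, MSTRG.1466.12, had 768, 855 and 882 counts in controls 1 to 3 and 666, 94 and 429 in PB 1 to 3, so that each PB pool was below each control pool. All 3 belong to a gene with 28 transcripts, 21 of them with a count.

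A transcript that reached 100 counts in 1 pool and had at most 3 in another pool of the same group was frequent among collagens. There were 43 such transcripts among 105 that reached 100 counts (41.0%), and 13122 of 46336 among all transcripts (28.3%). Col3a1 gave 117521 counts to the assembled MSTRG.183.2 in control 1 and 0 in the other 5 pools, while its reference transcript NM_009930.2 fell short by a like amount in control 1 alone, with 107111, 291236 and 234630 counts in controls 1 to 3 and 223277, 232316 and 282900 in PB 1 to 3. For Col27a1, NM_025685.3 had 0, 2148 and 2140 counts in controls 1 to 3 and 1756, 1849 and 0 in PB 1 to 3, and other transcripts of the gene held the counts of control 1 and PB 3. For Col2a1, XM_006520386.3 had 181, 242 and 238 counts in controls 1 to 3 and 238, 324 and 0 in PB 1 to 3, and NM_001113515.2 held 625 counts in PB 3 and 0 to 9 in the others. Col6a3 kept 38.0% of its counts on NM_001243009.1 in control 2 and 0% in the other pools. Counted on its reference transcripts alone, its log2 fold change would have been -5.19 ± 2.94 SE (edgeR, unadjusted p = 0.129), against -0.047 ± 0.080 SE on the sum. By contrast, Col4a1, Col4a2, Col4a5, Col4a6, Col6a2 and Col11a1 gave at least 98.4% of their counts to the same transcript in each pool, and Col1a1, Col5a2, Col4a3, Col6a5, Col8a1 and Col9a2 have 1 transcript.

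**Figure D5:**
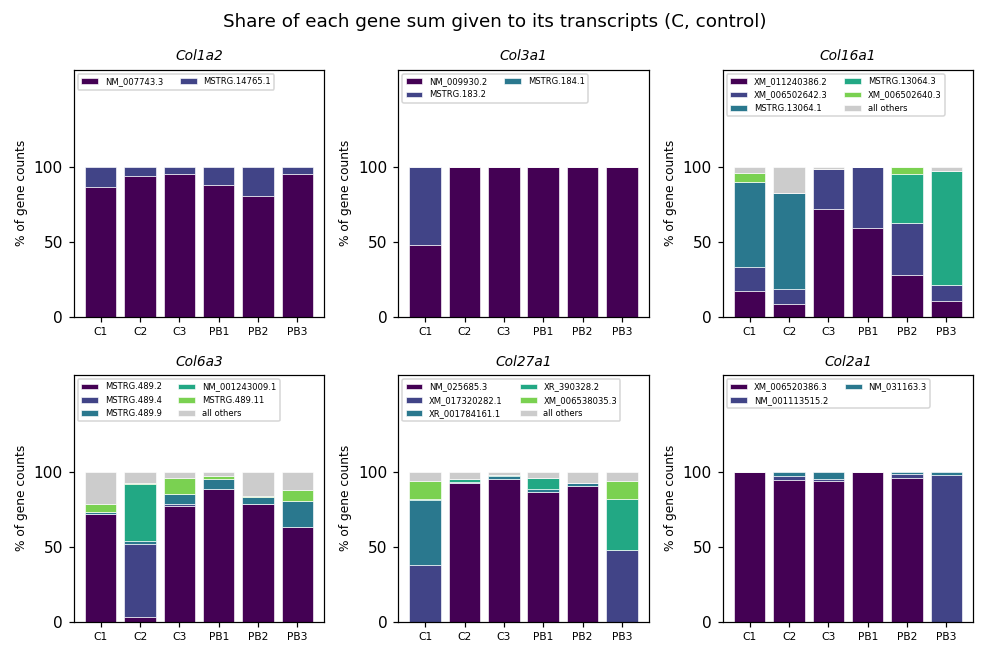
Percent of the gene sum held by each transcript of 6 collagen genes in the 3 control (C1 to C3) and 3 PB pools, with the 5 transcripts of the highest mean share coloured and the rest in light grey. Col1a2 gives 80.5% to 95.3% of its counts to the same transcript, Col3a1 is split in control 1 alone, and the leading transcript of Col16a1, Col6a3, Col27a1 and Col2a1 changes between pools of the same group.

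For the genes that fold, process, bind and degrade collagen, the log2 fold changes were, like those of the chains, mostly small and mostly below 0. Below 0 were 15 of 20 chaperones and enzymes, 9 of 13 processing genes and 8 of 10 receptors (all tested genes 49.3%). These counts without control 3 are not given here. Summed in TPM, not TMM-scaled, the lists were not lower in PB. The chaperones and enzymes held 1971, 1700 and 2046 TPM in control and 2061, 1938 and 2053 TPM in PB. The processing genes held 298, 271 and 306 TPM in control and 314, 284 and 321 TPM in PB. The receptors held 249, 234 and 271 TPM in control and 265, 254 and 262 TPM in PB. Of 20 chaperones and modifying enzymes, 0 were called by edgeR, and the log2 fold changes ran from -0.25 to 0.12. An unadjusted p under 0.05 was found for P3h3, a member of the prolyl 3-hydroxylase family, at 69.1, 70.2 and 71.3 CPM in control and 65.7, 64.2 and 65.9 CPM in PB (log2 fold change -0.10 ± 0.043 SE). Serpinh1, the collagen chaperone HSP47, was at 944, 776 and 959 CPM in control and 870.5, 945 and 830.1 CPM in PB and Ppib, a prolyl isomerase, at 259, 255 and 252 CPM in control and 249, 246 and 245 CPM in PB. Of 13 genes of procollagen processing and crosslinking, 0 were called and 0 had such a p. The highest were Pcolce, an enhancer of procollagen cleavage, at 114, 107 and 117 CPM in control and 109.6, 102 and 114 CPM in PB, and the C-proteinase Bmp1, at 145, 132 and 141 CPM in control and 128, 132 and 120.1 CPM in PB. Of 10 collagen receptors, 0 were called and 0 had such a p. Itgb1, the β1 integrin chain, was at 453, 457 and 460.5 CPM in control and 437, 439 and 435 CPM in PB and the collagen receptor kinase Ddr1 at 119.6, 121 and 124 CPM in control and 118, 124 and 119 CPM in PB. Every PB pool was below every control pool for the receptors Itgb1 and Itga2. The same held for P3h1, P3h3, Crtap, Ppib and Fkbp10 among the chaperones and enzymes. Such a lack of overlap was seen for 5.61% of all tested genes. Among the chaperones and enzymes, the processing genes and the receptors, no gene had every PB pool above every control pool.

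All 9 tested genes of collagen degradation, of 11 listed, had a TMM-scaled log2 fold change below 0, with a median of -0.13 (all tested genes 0.0020, with 49.3% below 0), and 0 were called by edgeR. In TPM, which were not TMM-scaled, the list was not lower in PB. Its summed level was 509, 486 and 516 TPM in control and 551, 492 and 525 TPM in PB. An unadjusted p under 0.05 was found for 3 of the 9, where 2.43% of all tested genes were lower at that p. Mmp14, a membrane-bound collagenase, was at 420.2, 429.7 and 436 CPM in control and 407, 388 and 382 CPM in PB (log2 fold change -0.13 ± 0.044 SE, unadjusted p = 0.0249, FDR = 0.888 by edgeR). Mmp9, a gelatinase, was at 1.06, 3.74 and 2.59 CPM in control and 0.857, 1.28 and 1.32 CPM in PB, with overlapping pools, and the inhibitor Timp4 at 0.621, 0.926 and 0.828 CPM in control and 0.454, 0.558 and 0.568 CPM in PB. Mmp2, the other gelatinase, was at 328, 334 and 297 CPM in control and 328, 292 and 319.5 CPM in PB, and on reference transcripts alone its log2 fold change was above 0, at 0.068 ± 0.15 SE. Timp1, Timp2 and Timp3 are, like Timp4, inhibitors of these proteases, and Timp2 and Timp3 had log2 fold changes of -0.013 ± 0.036 and -0.013 ± 0.047 SE. Mmp13 lay between 0 and 0.0706 CPM and Mmp3 was at 0 in all pools.

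Among 13 collagen-binding matrix proteins, 1 was called, Sparc, a matricellular protein that binds fibrillar collagen. Its sum was 548, 542 and 545 CPM in the control pools and 1064, 1120.0 and 1144 CPM in the PB pools (log2 fold change 1.02 ± 0.048 SE, FDR = 0.0023 by edgeR). With the reference transcripts counted and the assembled ones left out, the value turned to -0.85 ± 0.98 SE (FDR = 0.92 by edgeR). Fmod, which binds to fibrils of type I collagen, had an unadjusted p under 0.05 (unadjusted p = 0.0125, FDR = 0.888 by edgeR) at 32.0, 33.2 and 29.4 CPM in control and 36.3, 35.8 and 38.0 CPM in PB. Dcn, the proteoglycan decorin and next to Sparc in level per length, was at 168, 189 and 233 CPM in control and 162, 145 and 204 CPM in PB, with control 3 the highest as in many collagen genes.

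Markers of the cells that could carry collagen mRNA were measured in the same pools. Of 5 stromal markers, 0 were called by edgeR and 0 had an unadjusted p under 0.05, and their summed level was 360 to 469 TPM in control and 360 to 451 TPM in PB. Of 5 endothelial markers, 0 were called and 0 had such a p, at 108 to 134 TPM in control. Of 6 perivascular markers 0 were called, and Acta2, smooth muscle actin, had such a p, at 82.7, 87.4 and 84.7 CPM in control and 93.7, 119.8 and 99.2 CPM in PB (log2 fold change 0.30 ± 0.095 SE, unadjusted p = 0.0181, FDR = 0.888 by edgeR). The log2 fold change was above 0 for 3 of the 6 and below 0 for 3, with a median of -0.022. Those below 0 were Pdgfrb, Myh11 and Notch3, at -0.17, -0.089 and -0.20. All 4 surface epithelium markers had a log2 fold change above 0, and 0 were called by edgeR. Lrrn4 was at 40.5, 31.2 and 30.9 CPM in control and 47.0, 52.1 and 59.3 CPM in PB (log2 fold change 0.63 ± 0.13 SE, unadjusted p = 0.00270 by edgeR, FDR = 0.0148 by DESeq2, below a 2-fold difference). On reference transcripts alone its value turned to -2.66 ± 1.20 SE, and the other 3 stayed above 0. In TMM-scaled CPM, the pools of Upk3b, Krt19 and Msln overlapped between the groups, and those of Lrrn4 did not. The summed level of these 4, not TMM-scaled, was 160 to 192 TPM in control and 197 to 273 TPM in PB. Their part in the collagen levels was not tested.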

How the data were processed

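RNA-seq libraries from 3 control and 3 PB pools of E15.5 ovaries were analysed, with groups taken from the treatment labels. According to the methods and the submitters' processing notes, the authors aligned stranded poly(A) reads to mm10 with HISAT2 2.1.0, assembled transcripts with StringTie 1.3.5 and deposited raw counts per transcript. Where transcripts overlap, StringTie assigns each one a part of their reads, so a transcript count depends on that assignment and a gene sum on which transcripts carry the name. The 6 normalized per-sample columns and the fold changes and p-values deposited with them were not used. The members and lists were chosen with earlier results of these data known.

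Counts were summed per gene name and tested with edgeR 4.0.16 (R 4.3.3; TMM, filterByExpr with min.count 10 and min.total.count 15, quasi-likelihood F-test, Benjamini-Hochberg adjustment over all genes, tested on simulated data), without a replicate block; transcripts were tested likewise. DESeq2 1.42.0 was an alternative. TPM were computed here from the counts and exon lengths, and their total includes mitochondrial and assembled RNA. Chain ratios were compared by two-sided exact permutation tests. Pseudogenes were aligned with Biopython 1.88. All p-values measure the spread between pools, and the pools differed by more than sampling noise.

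Members named with values in every pool were those of highest level per class (up to 4, or 6 for fibrillar and basement membrane genes), those with an unadjusted p under 0.05 or without overlap, and those with the 2 largest and 2 smallest log2 fold changes; transcripts were named when called by edgeR or DESeq2, and list genes when at such a p or among the 2 highest. Transcripts named for an uneven division, other markers and remaining members were chosen after their values were seen. Protein sequences were not analysed here.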

Additional observations from a re-analysis of the deposited data

How the results depend on the processing

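The count of collagen genes called stayed at 0 in the main analysis and in every alternative that was run: size factors, DESeq2, no filter, a stricter filter, an FDR of 0.1, no fold threshold, reference transcripts alone, length-scaled counts, the replicate block, each pool left out and Col19a1 without its assembled transcripts, the last added after seeing the data. For the collagen transcripts, DESeq2 called 5 where edgeR and the other alternatives called 0. Over all genes, the 3 calls became 11 with DESeq2, 5 without a fold threshold, 8 on reference transcripts alone, 0 with the replicate block and 3 to 9 with a pool left out. Over all transcripts, the 17 calls became 1172 with DESeq2, 39 with the stricter filter, 51 at an FDR of 0.1, 0 with the replicate block and 0 to 19 with a pool left out. The 3 chain ratios without overlap became 1, Col4a3/Col4a4, on reference transcripts alone and 3 to 5 with a pool left out, the highest without PB 2; with the replicate block, 4 pairs had the same sign in each pair of pools. The cause of these shifts was not tested. The summed collagen level per length, in TPM that were not TMM-scaled, differed by 0.22 on the log2 scale (PB minus control) with Col19a1 and by 0.051 without it. Deviations of same-numbered pools correlated at 0.0934, 0.147 and -0.0177 (Pearson, across genes), and control 1 and control 3 correlated best with a PB pool of another number, so the numbers were not taken to pair the pools. Depth limits the members near the floor, such as Col10a1, and the division of reads among transcripts limits all values of single transcripts.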
